A study of Mus musculus with 7 samples.

Results

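RelB occupancy of the genome was described in mouse dendritic cells 1 h after lipopolysaccharide (LPS), by setting the anti-RelB ChIP-seq library of wild-type (WT) cells against the anti-RelB library of RelBko cells. All 93611 regions of the deposited table were used, so the members are 93611 of 93611 regions, and 3 of the 7 libraries carry the comparison: WT RelB at 1 h, RelBko RelB at 1 h and Input. ChIP-seq sequences the DNA that an antibody pulls down with its protein from fixed chromatin, and an input library is chromatin sequenced with no antibody. The cells were bone marrow-derived dendritic cells (BMDCs) grown from C57BL/6 mice in IL-4 (10 ng/mL) and GM-CSF (20 ng/mL), a mixed myeloid culture, and all groups share these cytokines. Both 1 h cultures received 10 ng/mL LPS. All groups also share fixation with the crosslinkers DSG (1 mM) and PFA (1%). The labels also attach to LPS a reagent name that belongs to a CpG oligonucleotide, so the stimulus is called LPS here only as the labels call it. The Input came from WT cells, with no time or stimulus given. How the RelBko allele was made, and the number of animals, are left unsaid in the labels. Each group holds 1 library, so no difference had a replicate check and no test was possible.

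RelB is a member of the NF-kB family, whose subunits bind as dimers to short GC-rich and AT-centred elements called kB sites. It pairs mainly with p52 or p50, the products of Nfkb2 and Nfkb1. In the noncanonical pathway, receptors such as CD40 and the lymphotoxin beta receptor free the kinase NIK from TRAF3, and p100 is processed to p52. RelB is abundant in dendritic cells and is known for its part in their development and maturation.

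Promoter sequences are shown first because a kB site is what RelB is known to bind. They are 30-base windows from RefSeq promoters (build GRCm38.p6), written 5′ to 3′ on the gene's strand, with the match to the 10-base kB consensus in capitals. They come from genes matched by symbol, among the promoters of highest WT RelB signal that hold a match before the gene's start. Windows of H2-Q7 and Dusp22, which also fit this rule, are not shown. Of the 20 strongest promoters looked at, 6 held the consensus. The capitals in Nfkbia and Nab1 read the consensus on the opposite strand.
Nfkbia, chr12:55492657-55492686: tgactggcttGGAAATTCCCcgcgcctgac
Traf3, chr12:111166350-111166379: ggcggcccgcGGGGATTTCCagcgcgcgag
Nab1, chr1:52500500-52500529: gagcaagagcGGAATCTCCCgatgtgacag
Ebi3, chr17:55952569-55952598: gccccttcctGGGGCTTCCCcgttggccat
Irf2, chr8:46739718-46739747: cgggggtgggGGGGATTTCCagcctcggct
Cxcl10, chr5:92349029-92349058: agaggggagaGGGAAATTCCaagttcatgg
Cxcl10, chr5:92348974-92349003: tcggtttacaGGGGACTTCCctcgggttgc
The Nfkbia and Nab1 genes lie on the minus strand, as does Cxcl10. Nfkbia encodes IkBa, the inhibitor that holds NF-kB in the cytoplasm, and Ebi3 encodes a subunit of IL-27 and IL-35. The match starts 29 bases before the RefSeq start in Nfkbia, 10 in Traf3, 71 in Nab1, 44 in Ebi3 and 17 in Irf2, and at 159 and 104 bases in Cxcl10. A match is a description of the letters and not a measured site.

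The share of promoters with a kB consensus match was higher in classes of higher WT RelB signal. Of the 32851 promoter windows in the RefSeq table (250 bases before to 50 after a start), 8.46% held the consensus on either strand. Signal is given in RPKM, reads scaled to the length of the region and the depth of the library. Among genes with 1 listed start, the consensus stood in 7.94% of 7465 promoters with no region, in 10.7% of 1813 under 10 RPKM, in 13.7% of 1323 at 10 to 20, in 22.3% of 618 at 20 to 50, and in 28.4% of 88 at 50 or more. These regions lie from 250 bases before to 50 after the start in the deposited annotation. So 25 of the 88 strongest promoters held it and the rest did not. The narrower kB form that ends in TTTCC, part of which overlaps the consensus, went from 1.09% to 10.2% between the lowest and highest class, beside 1.63% of all windows. The ETS element of the myeloid factor PU.1, GAGGAAGT, went from 2.51% to 14.8% (3.20% of all windows). The AP-1 element TGANTCA was at 6.56% with no region and 13.6% at 50 RPKM or more, with 4.08% at 10 to 20 (7.81% of all). The interferon-response element ISRE lay between 2.87% and 5.02% in all 5 classes (3.44% of all). The GC box GGGCGGG was at 32.5% with no region 60.7% at 20 to 50 and 52.3% at 50 or more (25.6% of all). Median GC content moved with the classes too, from 56% with no region to 65.7% at 20 to 50 RPKM and 60.5% at 50 or more, and its part in these shares was not tested.

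**Figure D1:**
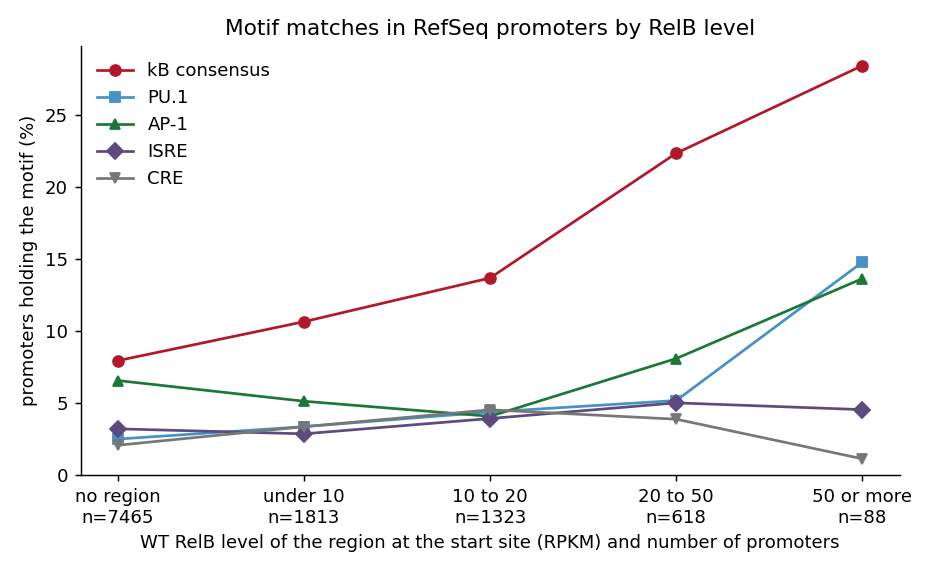
Share of promoters (y axis, %) that hold each sequence element, by class of WT RelB signal at the promoter (RPKM). The kB consensus share goes from 7.94% with no region to 28.4% at 50 RPKM or more.

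The libraries differed in depth and in how much of it fell into regions. Total reads were 28425471 for WT RelB, 19498468 for RelBko RelB and 13188833 for Input, and 42.4%, 4.62% and 3.52% of them lay in regions. Regions were 168 to 1029 bp long (median 361 bp). The Relb gene itself gives no check of the genotype, because its DNA is read whether or not RNA or protein is made. Intervals of read ratios below are exact (Clopper-Pearson, 95%) and cover counting error alone, as PCR copies of a molecule cannot be recognised here.

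WT RelB signal stood above that of RelBko in nearly all regions, and RelBko signal was near Input in most. A region was called enriched at 2 RPKM or more and at least 2-fold over Input, on a log2 scale with 0.5 RPKM added to each value. By that rule 76450 regions (81.7%) were enriched in WT and 5957 (6.36%) in RelBko, 5824 of them in both and 133 in RelBko alone. Of the 76583 enriched in either, 73417 (95.9%) were at least 2-fold higher in WT, 98 (0.128%) at least 2-fold lower, and 3068 within 2-fold. The median log2 ratio was 2.47, with quartiles of 1.81 and 3.19. In 16344 regions (21.3%) WT was at least 10-fold higher. Setting the median ratio to 1 instead leaves 13547 higher and 10470 lower, a share of 56.4% higher against 99.9%, since that scaling moves every log2 value by -2.47. It assumes that a typical region is bound alike in both genotypes, and under it the regions named below at Rn45s and Cr2, the Map3k14 promoter and the weakest of the Relb regions fall below 0 on the log2 scale.

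**Figure D2:**
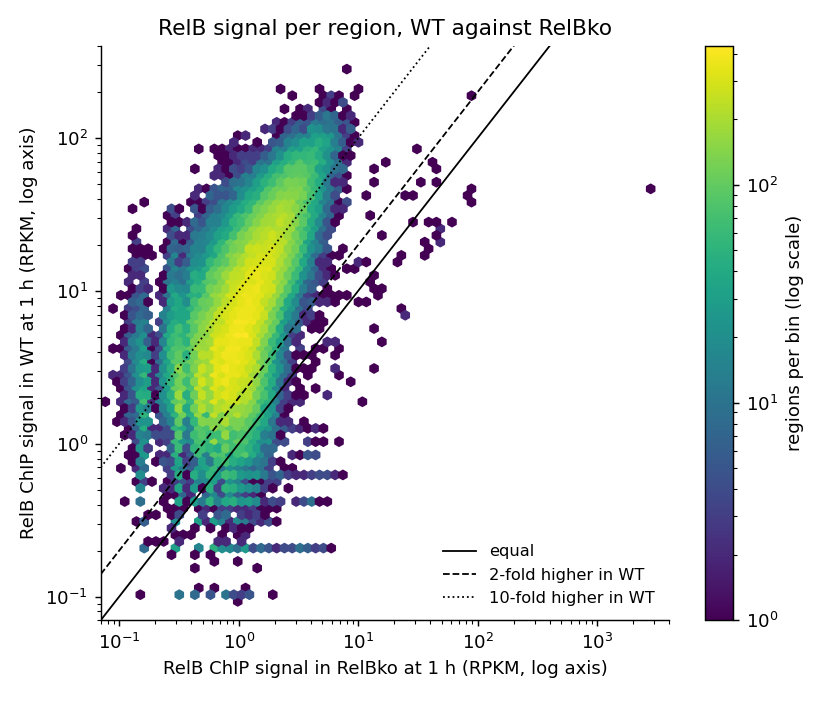
WT RelB (y axis) against RelBko RelB (x axis) at 1 h of LPS for all regions, both in RPKM on log axes. Most regions lie above the line of equal values, and the median log2 ratio of the 76583 compared regions is 2.47.

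The distance between WT and RelBko widened with the WT level, while RelBko itself also rose over Input. At 2 to 5 RPKM in WT (26204 regions) the medians were 3.22 RPKM in WT, 0.81 in RelBko and 0.74 in Input. At 10 to 20 RPKM (17117 regions) they were 13.8, 1.41 and 1.11. At 50 to 100 RPKM (3079 regions) they were 63.1, 3.19 and 1.34, and at 100 or more (334 regions) 115, 4.84 and 1.60. The RelBko library therefore held 24.3%, 10.1%, 4.91% and 4.05% of the WT signal in these classes as a median. The ratio contains the WT value that forms the classes, so its trend is a description. RelBko signal met the enrichment rule in 0.45% of regions at 2 to 5 RPKM and in 72.5% at 100 or more. Signal was also concentrated. The 9361 regions of highest WT signal, 10% of all, held 40.7% of the WT reads in regions, beside 22.3% of RelBko and 13.6% of Input reads. Over all regions, log2 WT and RelBko signal correlated at 0.64 (Pearson) and 0.62 (Spearman, n = 93611 regions), and WT and Input at 0.42 and 0.43. Points within a library share its depth, and regions share mappability and base composition.

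**Figure D3:**
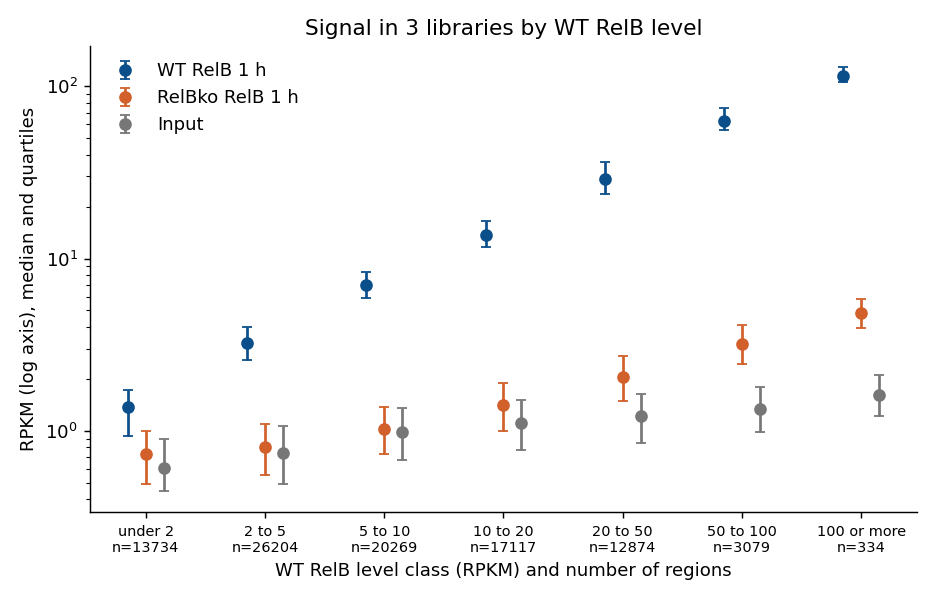
RelB signal by class of WT RelB level (x axis, RPKM) in WT, RelBko and Input, in RPKM on a log axis. The median goes from 3.22 to 115 in WT between the 2 to 5 class and the top class, and from 0.81 to 4.84 in RelBko.

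By annotation, promoters carried more RelB signal per region than introns or intergenic sites at the median. At 100 RPKM or more, their share of regions was near that over all regions. The 10262 promoter regions (10.96%) had medians of 10.8 RPKM in WT, 1.67 in RelBko and 1.27 in Input. The 41281 intronic regions had 5.81, 1.01 and 0.89, and the 36739 intergenic regions 5.54, 0.98 and 0.86. Median log2 ratios over all regions of a class were 2.37, 2.15 and 2.14. The share of compared regions at least 10-fold higher was 12.8% for promoters, 22.4% for introns and 23.8% for intergenic regions. Promoters made up 19.6% of regions at 10 to 20 RPKM, 8.44% at 50 to 100 and 11.7% at 100 or more. Over all regions they were 10.96%. Intergenic regions were 48.8% at 100 or more, beside 39.2% of all regions. At 10 to 20 RPKM in WT the median RelBko signal was 1.93 at promoters, 1.30 in introns and 1.27 between genes.

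**Figure D4:**
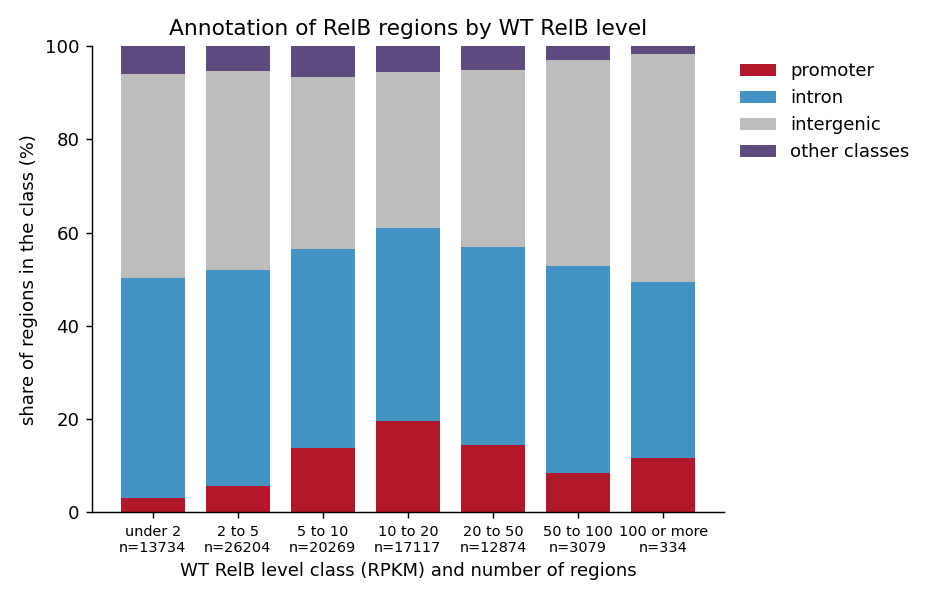
Share of regions (y axis, %) annotated as promoter, intron, intergenic or other, by class of WT RelB level (x axis, RPKM, with the number of regions). The promoter share is 19.6% at 10 to 20 RPKM and 8.44% at 50 to 100.

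Position on the chromosomes (build mm9 for every region) gave one further difference. The 2399 regions of the X chromosome had a WT median of 4.30 RPKM and a median log2 ratio of 1.90, beside medians of 5.68 to 6.82 RPKM and 2.11 to 2.23 on the autosomes. X regions also had a lower Input median, 0.724 RPKM beside 0.857 to 0.975 on the autosomes.

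The strongest RelB region in WT lay 8304 bp upstream of Gtf3c5, a subunit of the RNA polymerase III factor TFIIIC, at chr2:28446908-28447299. It had 282 RPKM in WT, 8.50 in RelBko and 2.13 in Input, a read ratio of 33.2 (26.0 to 43.1). The next was an intergenic region 14034 bp upstream of Nrp2, a co-receptor for semaphorins and VEGF, with 217 RPKM in WT and 5.06 in RelBko. The promoter of Nfkbia followed at 207 and 9.84. The other promoters among the 15 named strongest were those of the transcript 4833438C02Rik and of Ehd1, which recycles endocytosed membrane. The first had 176 RPKM in WT and 7.43 in RelBko, and Ehd1 had 173 and 5.59. The 4833438C02Rik region (chr19:46379770-46380349) lies beside the promoter region of Nfkb2 (chr19:46379024-46379378). Rn45s, the ribosomal RNA precursor, stood apart with 191 RPKM in WT, 90.1 in RelBko and 17.97 in Input, a ratio of 2.12 (1.92 to 2.34). Reads of such repeated DNA cannot be placed with certainty.

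The largest WT to RelBko ratios, ranked by the lower bound of the interval, were at other sites. An intergenic region near B930018H19Rik had 62.5 RPKM in WT and 0.41 in RelBko, a ratio of 154 (65.8 to 475). An intron of Gcnt2, which builds branched I-antigen glycans, had 86.3 and 0.45. The promoter of Cd63, a tetraspanin of late endosomes, had 109 and 0.96, and an intron of Hdac7, a class IIa histone deacetylase, had 98.4 and 0.89. In all of these RelBko was below or near Input (0.60, 1.98, 1.66 and 0.75 RPKM). These RelBko values rest on 5, 3, 6 and 7 reads, and low RelBko counts raise the ratio that set the ranking. Their position beside Input therefore follows in part from the choice.

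The anti-RelA libraries, which did not enter that choice, were lower in RelBko at the sites given here. RelA signal at the Gcnt2 region was 26.8 RPKM in WT and 4.004 in RelBko. At the region next to Rasa2, a Ras GTPase-activating protein, it was 33.8 and 4.41. At Hdac7 it was 39.9 and 10.6, and at Cd63 29.2 and 8.77. Over the 3413 regions of 50 RPKM or more in WT RelB, RelA was at least 2-fold higher in WT than in RelBko in 63 (1.85%). Of the 166 such regions with RelBko RelB below Input, 22 (13.3%) met that fold, and of the other 3247, 41 (1.26%) did. That split was chosen after the values were seen. Each RelA group is 1 library too.

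Genes were described by the promoter region nearest their start and by their strongest region within 100 kb of it. In the lists, a strongest region annotated as promoter counts as the promoter even where another lies nearer the start. Of 8627 genes whose promoter region was compared, 8426 (97.7%) were higher in WT and 1007 (11.7%) at least 10-fold higher. Of 21900 protein-coding RefSeq genes, 36% had a promoter higher in WT and 4.09% one 10-fold higher. Median promoter signal over all 9255 genes with such a region was 10.6 RPKM in WT and 1.67 in RelBko, and the median log2 ratio 2.34. These are the values beside which the 15 gene lists are given. A region of 50 RPKM or more lay within 100 kb of 11.1% of the genes with any region. In each list below with more than 4 compared promoters all of those compared were higher in WT, which is near the 97.7% over all genes. Over all members of a list, the share with a higher promoter ran from 57.1% for chemokines to 92.3% for feedback inhibitors in these lists, beside the 36% of protein-coding genes. It ran from 0% to 23.1% in the lists of other cell types and organs.

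All 8 promoter regions among 10 NF-kB subunit and kinase genes were higher in WT, with a median of 50.4 RPKM. Nfkb2, encoding p100 and p52, had 82.0 RPKM in WT, 7.22 in RelBko and 0.64 in Input at its annotated promoter region. The neighbouring region annotated to 4833438C02Rik had 176 and 7.43. Rel, encoding c-Rel, had 81.3 and 6.65, and Nfkb1 79.0 and 4.84. Relb itself had 5 regions, all higher in WT. Its promoter (chr7:20214655-20215034) had 49.3 and 4.18, and the strongest, 6094 bp upstream, 76.5 and 4.86. In the 13 genes of the noncanonical pathway all 8 promoters were higher, with a median of 44.2 RPKM. Traf3, the adaptor that leads NIK to degradation, had 121 RPKM in WT and 5.92 in RelBko, a ratio of 20.5. Cd40 had 86.3 and 5.43 at the promoter region nearest its start, and 133 and 6.37 at another promoter region. Map3k14, encoding NIK and listed with the kinases, had a weaker promoter of 13.3 and 3.70, and 45.0 and 3.35 at its strongest region.

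Feedback inhibitors carried the highest strongest-region median of any list, 78.3 RPKM, and all 12 of their promoters among 13 genes were higher in WT. Nfkbiz, a nuclear IkB protein, had 125 and 7.99, and Tnfaip3, the ubiquitin-editing enzyme A20, 117 and 5.33. All 13 cytokine promoters among 20 genes were higher, with a median of 37.9 RPKM. Tnf had 130 RPKM in WT and 6.00 in RelBko. For Il12b, the p40 subunit of IL-12 and IL-23, the promoter had 29.6 and 2.01, and a region 17725 bp upstream had 135 and 4.97. Of 13 chemokine promoters among 21 genes, 12 were higher. Cxcl9 had 104 and 5.01 and Ccl5 99.5 and 4.23, while Cxcl5, which draws neutrophils, had 1.14 and 1.21 and was not enriched. Ccl19, Ccl20, Ccl21a and Cxcl13 had no region within 100 kb.

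Among 25 dendritic cell maturation and migration genes all 18 promoters were higher, and 19 genes (76%) had a region of 50 RPKM or more, beside 11.1% of all genes with a region. Il4i1, a secreted amino acid oxidase, had 132 RPKM in WT, 2.12 in RelBko and 1.69 in Input at its promoter, a ratio of 62.1 (36.1 to 117). Ccr7, a chemokine receptor of dendritic cells migrating to lymph nodes, had 34.3 and 1.88 at its promoter and 156 and 3.86 at a region 13128 bp upstream. Cd83, a maturation marker, had 37.7 and 5.67 at its promoter and 161 and 5.14 at a region 6937 bp upstream. In both genes the distal region was the stronger. Over the whole list the promoter was the strongest region in 8 of 25 genes, beside 26.5% of all genes.

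Among interferon-stimulated genes the strongest region was the promoter in 14 of 22, beside 26.5% of all genes. All 19 promoters were higher, with a median of 19.5 RPKM, and Usp18, which removes ISG15 from proteins, was the single gene with a region of 50 or more. In the 21 immediate early genes a promoter region was the strongest in 1, Dusp2, and 17 had a region of 50 or more. That Dusp2 region had 138 RPKM in WT, beside 73.3 at the promoter region nearest its start. Fos had 16.8 and 1.70 at its promoter and 118 and 6.38 at a region 59480 bp away. The 22 lineage factors and receptors were alike in layout, with the promoter strongest in 1. Irf8, a factor needed for type 1 dendritic cells, had 33.7 and 1.28 at its promoter and 119 and 4.70 at a region 28537 bp upstream. Itgax, encoding CD11c, had 72.2 and 3.04 at its promoter.

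Housekeeping promoters were also higher in WT, 12 of 12 measured among 20 genes, with a median of 18.2 RPKM. Gapdh had 57.5 RPKM in WT, 3.45 in RelBko and 2.12 in Input. Few markers of other cell types had a promoter region. Of 12 neutrophil genes 4 had a promoter region and 2 were higher, led by Mmp9 at 19.9 and 1.94. Of 11 B cell genes 2 had a promoter region and 1 was higher, Cr2 at 3.88 and 0.99. Of 10 erythroid and mast cell genes 2 had a promoter region and none was compared, with Gata1 at 0.80 and 0.33. Of 25 genes of other organs 1 had one, Syt1 at 8.22 and 0.76. The 13 T and NK cell genes had 3 promoter regions, all higher, with Il7r at 27.6 and 2.52. ChIP signal at a marker gene does not measure how many such cells the culture held.

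**Figure D5:**
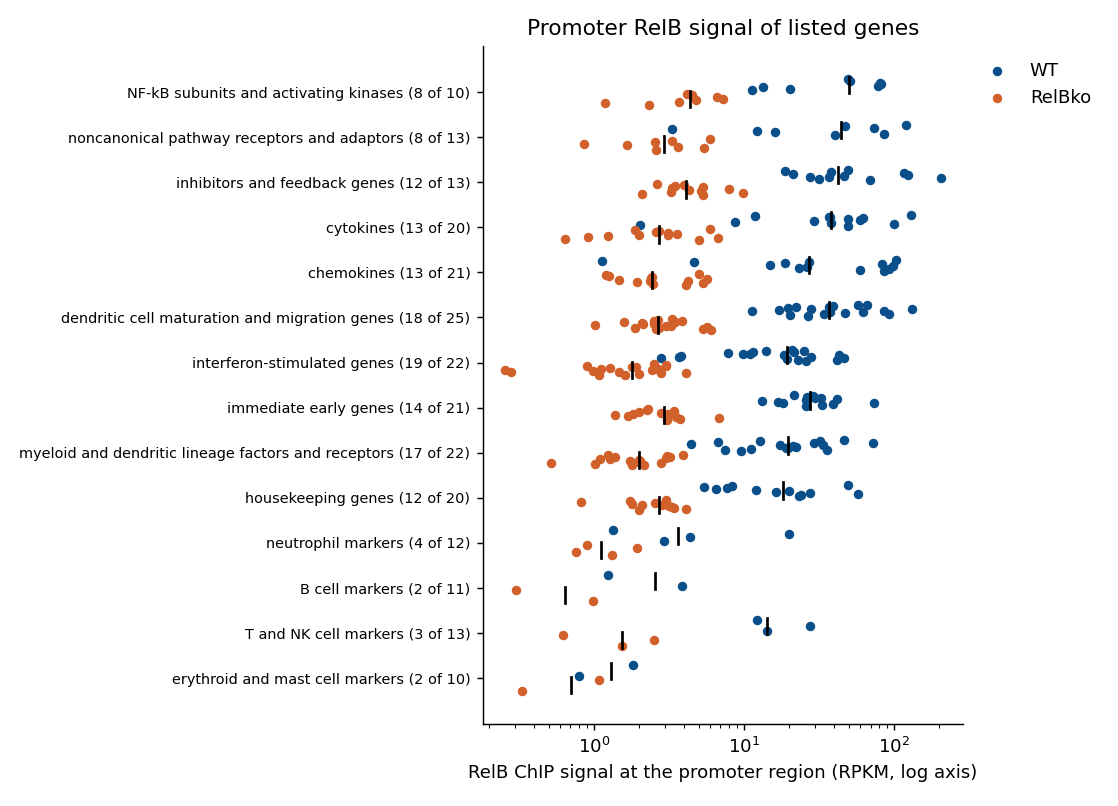
Promoter RelB signal (RPKM, log axis) for the genes of each list in WT and in RelBko, with each point 1 gene and black bars the medians. WT medians are 50.4 RPKM for NF-kB subunits and kinases, 18.2 for housekeeping genes and 3.65 for neutrophil markers.

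Many genes held several RelB regions. Of 18214 genes with a region within 100 kb, 16679 had one higher in WT, and 1364 had 10 or more. Foxp1, a forkhead repressor, had 58 higher of 70 regions. Creb5, a CRE-binding factor, had 49 of 61, and Pde4b, a phosphodiesterase that degrades cAMP, 47 of 51. Counts of this kind grow with the length of a gene and its flanks. Regions of 50 RPKM or more lay near 2022 genes (11.1%), and the strongest region was a promoter in 221 of these (10.9%). A630001O12Rik had the most such regions, 10, and Pde4b, Zfp366, Il6 and Traf1 each had 8.

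A small set of regions was not higher in WT. Of 16287 regions of 20 RPKM or more in WT, 21 were not, and 17 of these had 10 RPKM or more in Input. In an intron of E030024N20Rik WT had 37.0 RPKM, RelBko 85.6 and Input 59.8, and between genes near Abr the values were 21.5, 46.4 and 28.7. Against the RelBko library at 0 h both regions were higher in WT. An intron of Filip1l had 28.8 in WT, 29.7 in RelBko and 5.61 in Input. The region of highest RelBko signal lay in an intron at chr13:77578134-77578301, with Fam172a as its nearest gene. It had 48.2 RPKM in WT, 2803 in RelBko and 78.5 in Input, a ratio of 0.017 from 230 and 9182 reads, and RelBko had 89.2 RPKM there at 0 h. It is 1 of the 21 and also 1 of the 98 lower regions, and it was chosen after its values were seen. Most of the 98 were weak. Their median was 3 reads in WT, and 80 of them were 168 bp long, as were 286 regions in all. The one by the promoter of H2-M10.3 rested on 3 WT and 23 RelBko reads. H2-M10.3 is a class I histocompatibility gene, and the part of reads shared within that family was not tested. Regions at Esco1 (1 WT and 20 RelBko reads) and Tmem89 (1 and 15) also rested on few WT reads.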

How the data were processed

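Each library is ChIP-seq or input DNA from mouse BMDCs. The authors deposited 1 table of RPKM values for 93611 regions with annotation and nearest gene. HISAT2, HOMER and bedtools and the build mm9 are named in the submitters' processing notes, which give no role here. The labels' protocol names an anti-RelA antibody, and the sample labels give anti-RelB for the RelB libraries. In each library every value was a whole multiple of 1 read within 0.01, and these reads gave the totals and intervals. No region fell below 1 read, so each count may be 1 too high. Ratios used 0.5 RPKM added. Named regions, 1 per gene and within 100 kb of a start, were the 15 strongest, the 8 with the largest ratios in each direction, the lowest ratios at 20 RPKM or more for 8 genes, the 8 genes with most higher regions, 3 per list, and all 5 of Relb. One region these rules name is not reported here. Genes given for another reason (Map3k14, Il12b, Il6, Ccr7, Cd83, Fos, Irf8, Usp18, Cxcl5, Fam172a, A630001O12Rik, Zfp366, Traf1) were chosen after their values were seen. The members and lists were chosen with earlier results of these data known. Of 257 listed genes 237 had a region. Scripts were tested on simulated data. Alternatives changed the pseudocount, the filter, the fold, the scaling and the control.
Software was Python 3.11.15, numpy 2.4.6, pandas 2.3.3, scipy 1.17.1, matplotlib 3.10.9.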

Additional observations from a re-analysis of the deposited data

How the results depend on the processing

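With 1 library in each group no replicate could be left out. No paired analysis was possible because each group holds 1 library. The count of regions enriched in WT stayed within 1.5 times of 76450 under every alternative run, from 52969 to 87236. The 73417 regions higher in WT became 45974 at 4-fold and 13547 with the median ratio set to 1. The 98 lower regions became 21 with a minimum of 5 RPKM, 277 with no filter, 17 at 4-fold, 10470 with the median ratio set to 1, and 355 against RelBko at 0 h. The median log2 ratio of 2.47 became 2.83 and 2.20 with pseudocounts of 0.1 and 1, 2.87 with a minimum of 5 RPKM, 2.18 with no filter, 2.87 at 4-fold, 0 with the median ratio set to 1, 2.99 when scaled on reads outside the regions, 2.58 with 1 read taken off each count, and 1.97 against RelBko at 0 h. Promoters were 12.8% of the higher regions, and 13.2% with a pseudocount of 1, 15.5% with a minimum of 5 RPKM, 12.2% with no filter, 13.6% at 4-fold, 6.92% with the median ratio set to 1, 11.7% on outside reads and 11.5% against RelBko at 0 h. With the median ratio set to 1, which takes 2.47 off every log2 value, signs turned at Rn45s (-1.39), Bcl2l11 (-1.22), Cxcr2 (-0.51), Cr2 (-0.91), Ms4a1 (-1.34), the Map3k14 promoter (-0.74) and the weakest Relb region (-0.71). The same held for the levels of 2 to 5 (-0.94) and 5 to 10 RPKM (-0.17). It held for the medians of promoters (-0.10), introns (-0.31), intergenic regions (-0.33), exons (-0.53), transcription end sites (-0.48), 3' UTRs (-0.47), 5' UTRs (-0.15) and noncoding regions (-0.41), for promoters of housekeeping genes (-0.12), neutrophil (-1.04) and B cell markers (-1.13), and for the strongest regions of erythroid and mast cell markers (-0.42) and genes of other organs (-0.35). Against RelBko at 0 h the regions at E030024N20Rik (1.81) and Abr (1.94) turned to higher in WT, and the cause was not tested. That control, leaving out regions of 10 RPKM or more in Input, and calling by the exact interval were chosen after seeing the data. Depth limits the weakest regions most, where RelBko counts are a few reads.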

Other observations

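The RelBko RelB library kept a low signal at the strongest WT regions. Of the regions at 50 RPKM or more in WT, 1686 met the enrichment rule in RelBko and 1727 did not, a split chosen after the values were seen. The first set had medians of 69.2 RPKM in WT RelB, 4.07 in RelBko RelB and 1.11 in Input, and the other 61.8, 2.67 and 1.68. The split uses RelBko RelB and Input, so the differences in those medians follow from the rule. Median RelA signal was 56.4 in WT and 57.9 in RelBko in the first, and 44.4 and 43.6 in the other. The part of the antibody, of RelA or of open chromatin in this signal was not tested.

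RelB in WT before LPS gave nearly the same order of regions as after 1 h. The correlation of log2 signal across the 93611 regions was 0.91 (Pearson and Spearman), and it was 0.88 between WT RelB and WT RelA at 1 h. Regions share mappability and base composition, and each time point is 1 library.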
